A study of Oryza sativa with 18 samples.

Results

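In rice, 513 genes that were expressed in panicles and flag leaves alike carried an m6A peak in the flag leaf peak list and in neither panicle list. A gene counted as expressed where its mean input level was at least 1 FPKM, the authors' fragment density per transcript length and library size, in all 3 groups, namely flag leaves and panicles at either of 2 stages. Of 38663 genes with a level, 15281 met that floor, 12394 of these had a flag leaf peak, and the 513 leaf-only genes made up 4.14% of the latter. They held 544 of the 19545 flag leaf peaks. A single peak was listed for 483 of them and a pair for 29, and LOC_Os02g44270 had 3. Some pairs were nearly the same stretch listed again, as for LOC_Os04g09530 (chr4:5111680-5112183 and chr4:5111680-5112189). Such peaks are each counted among the 544. The presence of the flag leaf peak, the absence of a panicle peak and the floor on the input level are what the genes were chosen by, so the strength and number of their peaks are given as a description without a test.

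The plants were of the cultivar Nipponbare and grew in a field. Panicles were taken at booting on 3 August and at flowering on 14 August, and flag leaves were taken at the flowering stage with no day given, all at about 3 PM. Poly(A) RNA was broken into pieces of about 100 nt, 10% served as input, and an m6A antibody pulled down marked pieces from the remainder before strand-specific libraries were made. The 18 libraries comprised 9 immunoprecipitates and 9 inputs, with 3 of each per group, and no treatment or transgene separated the groups. For panicles, stage and day of collection cannot be told apart. Flag leaves against booting panicles differ in organ and in plant stage, which cannot be told apart either. Nothing in the labels says that replicates came from separate plants, so p-values measure the spread between these samples only, which may be technical.

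m6A, a methyl group on the N6 position of adenosine, is the most common internal mark of messenger RNA. In plants it is written by a methyltransferase complex around MTA, MTB and FIP37, removed by ALKBH demethylases and bound by YTH-domain proteins of the ECT family, and most of it lies near stop codons and in 3' UTRs. An m6A peak is a stretch in which fragments pulled down by the antibody exceed the input, so whether a peak is found depends on the modification and also on how many fragments of the transcript were sequenced.

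The organ labels were checked against marker genes. RuBisCO activase (LOC_Os11g47970), which keeps the carbon-fixing enzyme active, stood at 15106 to 15986 FPKM in the flag leaves, 1263 to 1474 FPKM in flowering panicles and 55.5 to 78.2 FPKM in booting panicles. The floral regulators MADS1, MADS6 and MADS8 summed to 4.91 to 7.31 FPKM in flag leaves, against 606.7 to 1078 FPKM in panicles. One leaf marker went against its label: photosystem II 22 kDa protein (LOC_Os04g59440), which dissipates excess light, was at 73.6 to 98.1 FPKM in flag leaves and at 311 to 420 FPKM in flowering panicles. The summed level of 3 mature pollen markers was 4747 to 5890 FPKM in flowering panicles and 16.8, 15.5 and 6.20 FPKM in flag leaf replicates 1, 2 and 3. Booting anther and tapetum markers summed to 879, 349 and 642 FPKM in booting panicle replicates 1, 2 and 3, and to at most 2.07 FPKM in other libraries. The source of that spread between booting replicates was not tested. Pearson correlations between replicate inputs were 0.9875 to 0.9956, and the summed FPKM per library was 504583 to 569592. In whole organs, fewer cells of a type and less RNA per cell cannot be told apart.

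The peaks of the leaf-only genes were weak by the authors' own values. Their deposited fold of immunoprecipitate over input had a median of 2.44 and ran from 1.14 to 55.9, whereas the 13492 flag leaf peaks of the 11881 expressed genes that also had a panicle peak had a median of 12.5. A fold of at least 5 was listed for 13.6% of the leaf-only peaks and for 82.9% of the others, and a fold under 2 for 35.7% and 2.76%. The median base-10 logarithm of the deposited p was -8.78 against -356. In all, 37 leaf-only peaks (6.80%) had a p under 1e-100, and 82 (15.1%) had a p over 0.001. Ranked by p within the whole flag leaf list, 516 of the 544 (94.9%) ranked below the median and 283 (52.0%) below the lower quartile. The weakest was that of LOC_Os10g37530, with a logarithm of p of -1.35 and a fold of 2.64. The base-10 logarithm of its deposited false discovery rate was -0.689. How many leaf-only peaks would pass a threshold on that rate was not worked out. The leaf-only peaks were also short, with a median of 180 bases against 450, as were booting-only peaks at 144 and flowering-only peaks at 118.

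**Figure D1:**
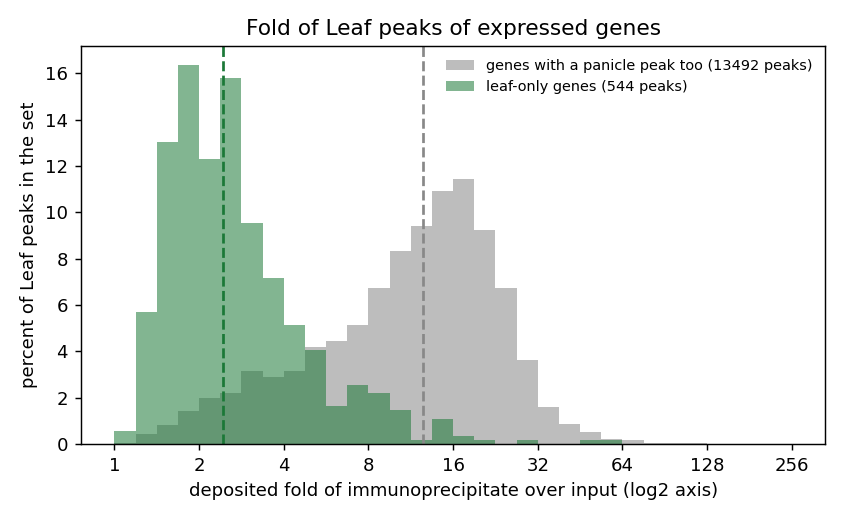
Distribution of the deposited fold of immunoprecipitate over input (x axis, log2 scale) as percent of the flag leaf peaks in each set (y axis). Green bars are the 544 peaks of leaf-only genes, grey bars the 13492 peaks of expressed genes with a panicle peak too, and dashed lines their medians of 2.44 and 12.5.

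Peaks found in a single panicle list were weak as well. The 109 expressed genes with a peak in the booting list alone had a median fold of 3.08 and a median logarithm of p of -4.76, and the 77 with a peak in the flowering list alone had 2.20 and -4.75. Fold and p come from 1 pooled list per group, so they are set side by side without a test. Booting-only genes were 0.923% of the 11803 expressed genes with a booting peak and flowering-only genes 0.651% of the 11819 with a flowering peak. A stage-only gene must also lack a peak at the other panicle stage, so these shares are not alike to the 4.14% of the flag leaf. Taking both panicle lists together, 266 of 12147 expressed genes with a panicle peak (2.19%) had none in flag leaves. Depth of the immunoprecipitates is not given in the sources used here, and its part in the number of peaks called per organ was not tested.

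Most leaf-only peaks lay at the 3' side of their genes. The authors' annotation placed 450 of 544 (82.7%, exact Clopper-Pearson 95% interval 79.3 to 85.8, counting error only) in 3' UTRs, 70 (12.9%) in exons and 24 (4.41%) in 5' UTRs. Among the flag leaf peaks of genes with a panicle peak too, 88.8% lay in 3' UTRs, 5.88% in exons and 5.35% in 5' UTRs. The exon peaks of the leaf-only genes comprised 20 in the last exon, 13 in the first, 18 in internal exons and 19 in single-exon genes. Of the 544 peaks, 39.3% ended at the annotated 3' end of the gene, against 76.9% of the others, and within 3' UTR peaks the shares were 41.6% and 82.96%. Only 6.62% of the leaf-only peaks spanned more than 1 exon block, against 36.2%. The median genomic span of the genes was 2303 bases, against 4188 for expressed genes in all 3 lists, 2002 for those in none, 2790 for booting-only and 2127 for flowering-only genes.

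**Figure D2:**
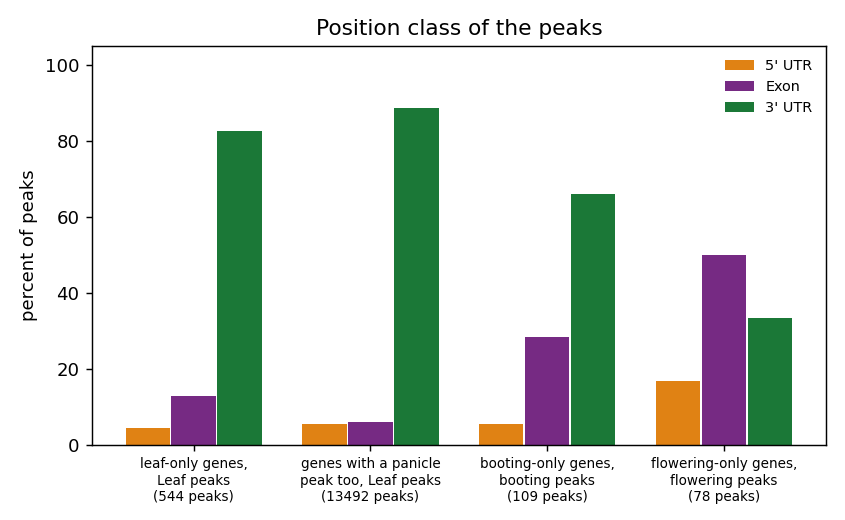
Percent of peaks (y axis) that the authors' annotation placed in 5' UTRs, exons and 3' UTRs, for 4 sets of expressed genes (x axis). In 3' UTRs lay 82.7% of the leaf-only peaks, 88.8% of the flag leaf peaks of genes with a panicle peak too, 66.1% of booting-only and 33.3% of flowering-only peaks.

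Leaf-only genes were more frequent among genes with low input. Where the lower of the 2 panicle means was 1 to 3 FPKM, 150 of 1478 genes with a flag leaf peak (10.1%) had no panicle peak. The share was 4.69% at 3 to 10 FPKM, 2.49% at 10 to 30, 2.52% at 30 to 100 and 2.40% (8 of 333) at 100 or more. By flag leaf level it was 8.13% at 1 to 3 FPKM and rose again to 5.50% (29 of 527) at 100 or more. The median level of the 513 genes was 6.96 FPKM in flag leaves, 6.75 in booting panicles and 8.54 in flowering panicles. In the same order, expressed genes with peaks in all 3 lists had medians of 11.9, 15.6 and 14.9 FPKM, and the 2621 with none had 5.76, 6.47 and 8.41 FPKM.

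**Figure D3:**
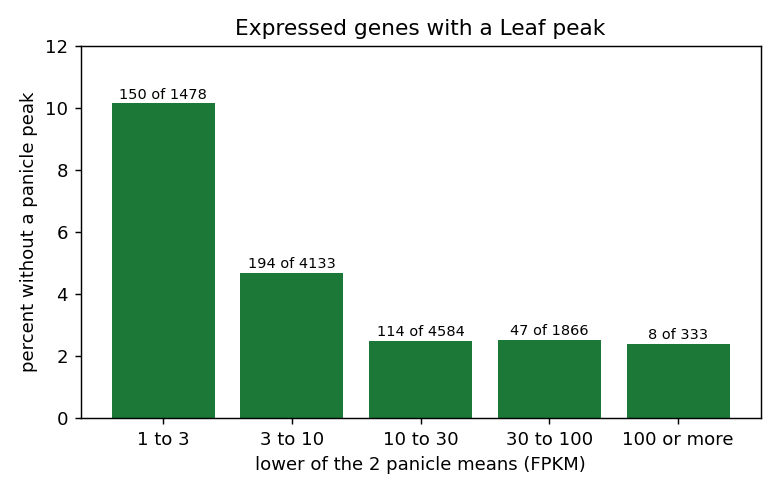
Percent of expressed genes with a flag leaf peak that had no panicle peak (y axis), by the lower of the 2 panicle mean input levels in FPKM (x axis), with counts above the bars. The share is 10.1% in the lowest bin and 2.40 to 4.69% in the other bins.

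Within the leaf-only set the fold went down as the level went up. The median fold of a gene's peak of smallest p was 3.21 for genes at 1 to 3 FPKM in flag leaves, then 2.52, 2.13, 1.81 and, at 100 FPKM or more, 1.51. Genes with a panicle peak too had medians of 10.3, 13.3, 14.9, 13.3 and 9.71 in the same bins, so the gap was present at every level. Fold and p did not rank these peaks alike. Of 33 peaks with a fold of at least 8, 18 had a p over 1e-10, 16 of them in genes under 10 FPKM in flag leaves, and 7 had a p under 1e-100. Another 9 peaks had a p under 1e-100 with a fold under 2. The largest fold, 55.9, belonged to LOC_Os08g12740, described only as a hypothetical protein, at 3.23 FPKM in flag leaves and with a logarithm of p of -15.3.

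**Figure D4:**
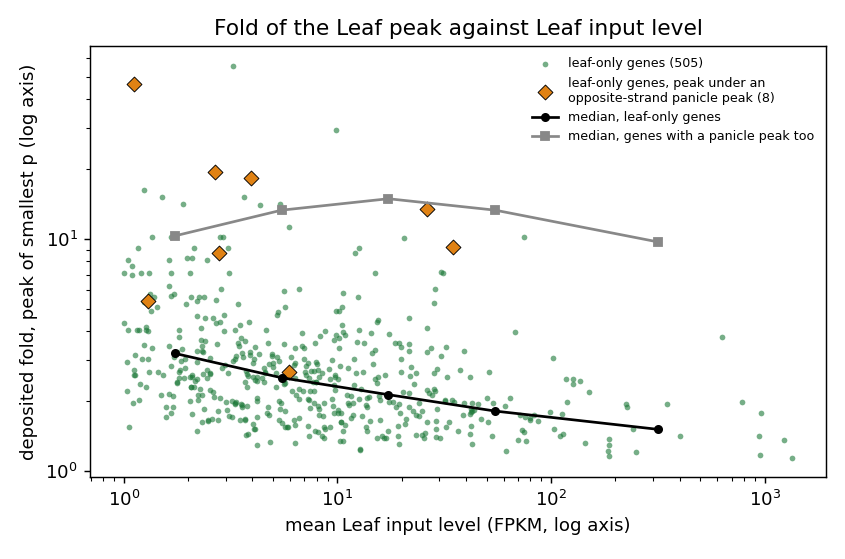
Deposited fold of each leaf-only gene's peak of smallest p (y axis, log scale) against its mean flag leaf input (x axis, FPKM, log scale). Orange diamonds are the 8 genes whose peak lies under an opposite-strand panicle peak, and lines join the median per bin of level for leaf-only genes (black, 3.21 down to 1.51) and for genes with a panicle peak too (grey, 9.71 to 14.9).

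For 8 of the 513 genes the same stretch of genome did carry a panicle peak, listed for a gene on the other strand. Between 66.7 and 100% of the bases of these flag leaf peaks lay within it. They included the 2 smallest p of the whole set. One was the peak of the uncharacterized LOC_Os04g54320 (chr4:32339307-32340817, fold 13.4, logarithm of p -1330), which lay under a booting and flowering peak of LOC_Os04g54330, an N-alpha-acetyltransferase. A further flag leaf peak of LOC_Os04g54320 (chr4:32339299-32339536, fold 2.13, logarithm of p -38.3) lay under no panicle peak. The other of the 2 smallest p was that of the probable polygalacturonase LOC_Os03g03360 (chr3:1433595-1433985, fold 9.22, logarithm of p -1090), an enzyme class that cuts cell-wall pectin. The panicle peaks there were listed for LOC_Os03g03350, also a probable polygalacturonase, at 0.209 FPKM in flag leaves, 31.7 in booting panicles and 26.7 in flowering panicles. LOC_Os03g03360 had 10.52, 9.97 and 12.9 FPKM in booting panicles, 21.5, 21.0 and 21.95 in flowering panicles, and 35.8, 34.8 and 33.6 in flag leaves. Its groups did not overlap, and it rose from booting panicles to flag leaves by 1.57 ± 0.09 on the log2 scale (SE; limma, adjusted p = 3.06e-08).

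The other 6 were LOC_Os10g30190 (an FH protein interacting protein, fold 19.4), LOC_Os01g48910 (long chain acyl-CoA synthetase 4, 18.3), LOC_Os03g61670 (calreticulin-like, 8.69), LOC_Os07g35920 (46.7), LOC_Os01g54040 (5.40) and LOC_Os03g50220 (homologous-pairing protein 2 homolog, 2.67). Calreticulins are calcium-binding chaperones of the endoplasmic reticulum. The calreticulin-like gene had 250.1, 183 and 231 FPKM in booting panicles, 57.0, 57.3 and 99.9 in flowering panicles, and 3.35, 2.53 and 2.47 in flag leaves. It fell by 4.22 ± 0.21 from flowering panicles to flag leaves (log2; limma, adjusted p = 2.52e-08), with no overlap between groups, so its single flag leaf peak was listed in the organ with the lowest level. Acyl-CoA synthetase 4, which activates fatty acids, likewise had 3.93 ± 0.6 FPKM in flag leaves, 29.7 ± 1.83 in booting panicles and 15.2 ± 2.13 in flowering panicles (SD, n = 3 each). Without these 8 genes the median fold of the leaf-only peaks was 2.42 and the share in 3' UTRs 82.6%. Counting reads by strand is not stated for the expression table, and 17 of the 513 genes overlapped a gene on the opposite strand, so reads of both partners cannot be told apart there.

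The input level of the leaf-only genes was then compared between organs on the log2(FPKM + 1) scale, which understates the change of low genes. Calls required a limma p under 0.05 after Benjamini-Hochberg adjustment over 23355 genes, together with a log2 difference of at least 1 in either direction. Since the floor applied in every organ, genes silent in panicles are not among the 513. Between flag leaves and flowering panicles, 89 were higher in flag leaves (17.3%), where the background over all genes tested was 11.5% and over expressed genes 10.7%. A further 110 were lower (21.4%, background 31% and 21.3%), and 314 were not called. Their median log2 difference was -0.24, against -0.44 for all genes tested and -0.27 for expressed genes. After quantile normalization, which moved the median of all genes from -0.44 to 0.12, the split was 161 higher and 70 lower. The share of all genes called under that scaling was not worked out, so this split has no background beside it.

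Against booting panicles 134 were higher in flag leaves (26.1%, background 17.7% of all genes and 17% of expressed genes) and 133 lower (25.9%, background 36.4% and 28.8%), with a median of -0.17 against -0.51 for all genes. Quantile normalization turned this split into 176 higher and 77 lower, again without a background share, with the median of all genes at -0.00057. Both comparisons share the flag leaf libraries, and that with booting panicles also spans a difference in plant stage. Between panicle stages, 109 rose from booting to flowering (21.2%, background 18.1% and 13.3%) and 47 fell (9.16%, background 15.3% and 8.36%). The rise was as frequent among the 2621 expressed genes with no peak in any list, of which 22.2% rose and 8.85% fell. Of the 266 with panicle peaks only, 17.3% rose and 10.9% fell. Among the genes with no peak, 21.5% were higher and 25.4% lower in flag leaves than in booting panicles. Against flowering panicles their shares were 13.1% and 25.1%. Of the 513 genes, 180 (35.1%) had their highest mean in flag leaves, 194 (37.8%) in booting panicles and 139 (27.1%) in flowering panicles. Over expressed genes these shares were 28.4, 47.8 and 23.7%. For 251 genes both panicle means exceeded the flag leaf mean, a count for which no share over expressed genes was worked out.

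Photosystem and light-harvesting genes in the set were higher in flag leaves. Of 28 such genes with a flag leaf peak 5 (17.9%) were leaf-only, and all 5 were higher in flag leaves in both comparisons. That direction was usual for the list, in which 43 of 57 expressed genes were higher than in flowering panicles and 51 than in booting panicles. Their peaks lay in 3' UTRs. The leaf isozyme of ferredoxin-NADP reductase (LOC_Os02g01340), which passes electrons from ferredoxin to NADP, held the third smallest p of the set (chr2:183601-183984, logarithm of p -876) at a fold of 3.76. Its input stood at 12.2, 14.7 and 10.6 FPKM in booting panicles, 104, 92.9 and 99.3 in flowering panicles, and 641, 621 and 640.1 in flag leaves. No groups overlapped, and it rose by 2.67 ± 0.10 from flowering panicles (SE; limma, adjusted p = 3.57e-09) and by 5.57 ± 0.10 from booting panicles (adjusted p = 2.4e-11), the latter being the larger difference.

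The other 4 were proteins of photosystem II and its antenna. PSB27-H1 (LOC_Os03g21560), known in Arabidopsis for the repair of photodamaged photosystem II, had a fold of 2.43 and 11.1, 11.1 and 11.5 FPKM in booting panicles, 50.5, 39.3 and 53.2 in flowering panicles, and 134, 146 and 129.9 in flag leaves. Photosystem II 5 kDa protein (LOC_Os02g37060) had a fold of 1.76 and 15.1, 19.6 and 18.9 FPKM in booting panicles, 57.7, 52.2 and 57.6 in flowering panicles, and 118, 116 and 104 in flag leaves. All flag leaf values of both genes lay above all panicle values. For the 5 kDa protein the difference from flowering panicles sat just past the threshold of 1 (SE 0.10; limma, adjusted p = 4.86e-06) and was 0.95 without flowering panicle replicate 2, 0.97 without flag leaf replicate 1, 0.98 without replicate 2 and 0.95 with a pseudocount of 5, so the call was lost there.

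The chlorophyll a-b binding protein of LHCII type III (LOC_Os07g37550) and chlorophyll a-b binding protein 7 (LOC_Os07g38960) are antenna proteins that gather light. The first had 111, 137 and 122 FPKM in booting panicles, 351, 298 and 339 in flowering panicles, and 925, 952 and 935 in flag leaves, with a fold of only 1.42. The second had 73.1, 96.0 and 67.1 FPKM in booting panicles, 289, 254 and 318 in flowering panicles, and 937, 946 and 959 in flag leaves, with a fold of 1.17. They rose by 1.51 ± 0.10 and 1.73 ± 0.13 from flowering panicles (SE; limma, adjusted p = 2.39e-07 and 7.62e-07), and no flag leaf value overlapped a panicle value. Even in booting panicles both stood at 67.1 FPKM or more in every library. Both belong to a family of similar copies between which reads could be split.

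**Figure D5:**
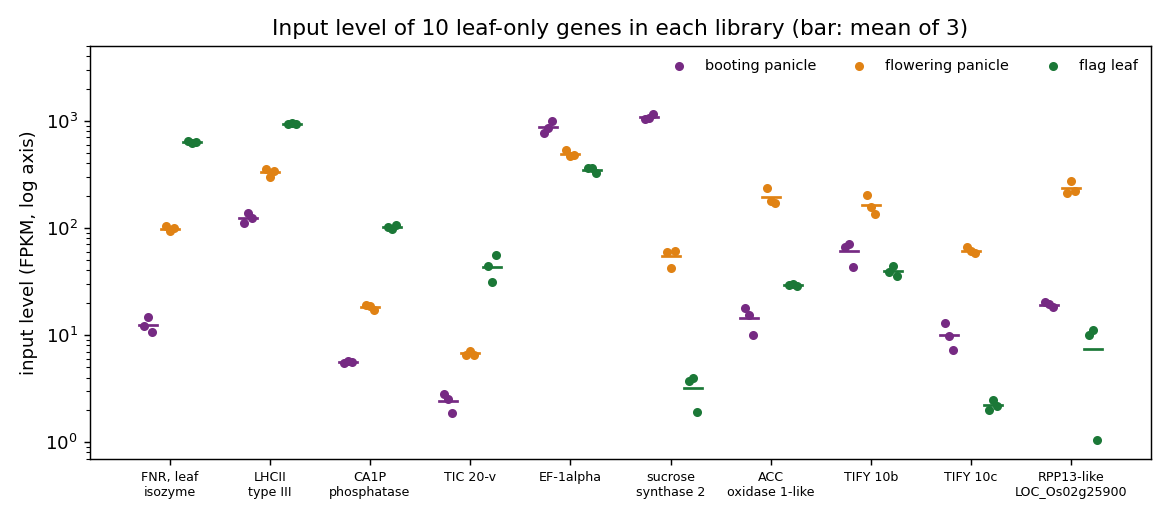
Input level (y axis, FPKM, log scale) of 10 leaf-only genes (x axis) in each of the 9 input libraries, with points for libraries and bars for the mean of 3. The 4 genes on the left were highest in flag leaves, elongation factor 1-alpha and sucrose synthase 2 were highest in booting panicles, and the 4 on the right were highest in flowering panicles.

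Several other plastid proteins shared this pattern. Chloroplast calcium sensing receptor (LOC_Os02g49680), a thylakoid protein that in Arabidopsis takes part in stomatal closure, had a fold of 2.50 and 24.5, 29.3 and 28.0 FPKM in booting panicles, 49.0, 45.6 and 51.2 in flowering panicles, and 130, 122 and 129 in flag leaves. Glutamate-1-semialdehyde 2,1-aminomutase (LOC_Os08g41990), which makes the precursor of chlorophyll and heme, had a fold of 2.49 and 41.3, 40.8 and 43.9 FPKM in booting panicles, 51.5, 48.7 and 54.8 in flowering panicles, and 123, 117 and 111 in flag leaves. Both rose in flag leaves, by 1.37 ± 0.08 and 1.16 ± 0.07 from flowering panicles (SE; limma, adjusted p = 6.13e-08 and 7.38e-08). Flag leaf values lay above every panicle value. Of 737 genes described as chloroplastic with a flag leaf peak 28 (3.799%) were leaf-only, near the 4.14% over all genes, and 15 of them were higher and 5 lower than in flowering panicles. Of all 869 expressed genes so described, 348 were higher and 107 lower.

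Of 25 genes of the Calvin cycle and photorespiration with a flag leaf peak, 2 were leaf-only, and they went opposite ways, while of 30 expressed genes on that list 17 were higher and 4 lower than in flowering panicles. 2-Carboxy-D-arabinitol-1-phosphatase (LOC_Os11g05260), which degrades a night-time inhibitor of RuBisCO, had a fold of 3.07 and 5.42, 5.68 and 5.60 FPKM in booting panicles, 19.0, 18.5 and 17.2 in flowering panicles, and 101, 98.5 and 106 in flag leaves. It rose by 2.42 ± 0.06 from flowering panicles (SE; limma, adjusted p = 2.68e-10), without overlap. A RuBisCO small chain gene (LOC_Os02g05830), one of several copies of that subunit, had 6.91, 7.91 and 8.11 FPKM in booting panicles, 4.13, 4.94 and 6.05 in flowering panicles, and 1.80, 1.94 and 1.83 in flag leaves. It fell by 1.07 ± 0.12 from flowering panicles (log2; limma, adjusted p = 1.22e-05) and by 1.59 ± 0.12 from booting panicles (adjusted p = 3.65e-07). With a pseudocount of 5 the values were -0.55 and -0.88, after quantile normalization -0.32 and -0.94, and without flowering panicle replicate 3 the first was -0.95, all short of a call.

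Import into the chloroplast and plastid translation added 10 of 160 genes (6.25%), of which 2 were higher and none lower than in flowering panicles, and 3 higher and 1 lower than in booting panicles. Of 240 expressed genes on that list, 35 were higher and 21 lower than in flowering and 67 and 43 than in booting panicles. The 2 higher than in flowering panicles were subunits of the inner envelope translocon. TIC 20-v (LOC_Os02g49470) had 2.83, 2.54 and 1.85 FPKM in booting panicles, 6.53, 7.04 and 6.56 in flowering panicles, and 43.6, 31.4 and 55.6 in flag leaves, and its peak lay in its single exon with a fold of 1.83. TIC 55 (LOC_Os02g54980) had 1.96, 2.09 and 1.91 FPKM in booting panicles, 5.53, 4.54 and 5.33 in flowering panicles, and 19.9, 16.3 and 19.9 in flag leaves and a fold of 1.89. They rose by 2.49 ± 0.18 and 1.68 ± 0.10 from flowering panicles (SE; limma, adjusted p = 4.7e-07 and 1.05e-07), with flag leaf values above all others. CHLOROPLAST IMPORT APPARATUS 2 (LOC_Os02g05470), which in Arabidopsis activates genes for such import, was not on that list. It rose by 2.56 ± 0.14 from flowering panicles (SE; limma, adjusted p = 6e-08) and had 10.3, 9.25 and 7.14 FPKM in booting panicles, 15.7, 10.7 and 14.1 in flowering panicles, and 84.9, 84.8 and 81.0 in flag leaves. Plastid ribosomal protein L12 (LOC_Os01g47330) had 31.9 ± 0.838 FPKM in flag leaves, 10.6 ± 2.47 in booting panicles and 33.97 ± 2.08 in flowering panicles (SD, n = 3 each). It rose from booting panicles by 1.52 ± 0.12 (SE; limma, adjusted p = 8.13e-07), while its difference from flowering panicles, -0.09 ± 0.12, missed the call (adjusted p = 0.525). The pentatricopeptide gene LOC_Os12g18640, of a family that processes organelle RNA, had 9.85 ± 0.251 FPKM in flag leaves, 4.89 ± 0.499 in booting panicles and 5.20 ± 0.236 in flowering panicles (SD, n = 3 each), and its difference from flowering panicles, 0.81 ± 0.08, was under the call but passed after quantile normalization (1.38).

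Hormone genes were the other list with a high leaf-only share, at 14 of 79 with a flag leaf peak (17.7%). Here 1 was higher and 7 were lower than in flowering panicles, and 5 were higher and 6 lower than in booting panicles. Of the 126 expressed genes on that list, 9 were higher and 48 lower than in flowering panicles, and 21 were higher and 46 lower than in booting panicles. ACC oxidase 1-like (LOC_Os02g53180), the enzyme of the last step of ethylene synthesis, had a fold of 2.75 (chr2:32562199-32562675, 3' UTR) and 17.9, 15.2 and 10 FPKM in booting panicles, 236, 177 and 172 in flowering panicles, and 29.3, 29.99 and 28.7 in flag leaves. The 3 groups were apart, with flag leaves in between. It fell by 2.67 ± 0.18 from flowering panicles (log2; limma, adjusted p = 2.91e-07).

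Ethylene was represented further by a receptor and by transcription factors. The EIN3-like 1 genes LOC_Os03g20780 and LOC_Os03g20790 lie next to each other, carry the same description and may share reads. They had 99.3 ± 4.06 FPKM in flag leaves, 26.3 ± 5.10 in booting panicles and 54.2 ± 2.29 in flowering panicles (SD, n = 3 each) and 114 ± 3.86 FPKM in flag leaves, 30.1 ± 5.68 in booting panicles and 61.5 ± 2.61 in flowering panicles (SD, n = 3 each). Their peaks lay in single exons with folds of 1.80 and 1.44. Both rose from booting panicles, by 1.89 ± 0.12 and 1.89 ± 0.11 (SE; limma, adjusted p = 7.61e-08 and 6.47e-08), and were under the call against flowering panicles, where LOC_Os03g20780 passed after quantile normalization (1.06). Ethylene receptor 3 (LOC_Os02g57530) had 2.19 ± 0.272 FPKM in flag leaves, 1.46 ± 0.233 in booting panicles and 1.48 ± 0.156 in flowering panicles (SD, n = 3 each) and was called in neither comparison.

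TIFY 10b and TIFY 10c, of the JAZ family that represses jasmonate signalling, had their highest levels in flowering panicles. TIFY 10b (LOC_Os07g42370) had 66.6, 70.7 and 43.2 FPKM in booting panicles, 203, 157 and 134 in flowering panicles, and 38.6, 43.6 and 35.5 in flag leaves, with a 3' UTR peak of fold 1.97. TIFY 10c (LOC_Os09g26780) had 12.8, 9.68 and 7.25 FPKM in booting panicles, 65.7, 60.4 and 57.8 in flowering panicles, and 2.01, 2.45 and 2.15 in flag leaves, with a 5' UTR peak of fold 3.30, a logarithm of p of only -1.92 and a logarithm of the false discovery rate of -1.24. They fell by 2.02 ± 0.19 and 4.28 ± 0.16 from flowering panicles to flag leaves (log2; limma, adjusted p = 4e-06 and 2.96e-09). Flag leaves lay below every flowering panicle value in both genes. The single hormone gene called higher in flag leaves than in flowering panicles was abscisic acid 8'-hydroxylase 3 (LOC_Os09g28390), which breaks abscisic acid down, with 27.8 ± 2.15 FPKM in flag leaves, 7.49 ± 0.75 in booting panicles and 7.42 ± 0.481 in flowering panicles (SD, n = 3 each) and a rise of 1.77 ± 0.09 from flowering panicles (SE; limma, adjusted p = 2.7e-08). Auxin response factor 5 (LOC_Os02g04810) had 2.53 ± 0.176 FPKM in flag leaves, 6.51 ± 0.974 in booting panicles and 19.1 ± 2.47 in flowering panicles (SD, n = 3 each) and fell by 2.50 ± 0.12 from flowering panicles (log2; limma, adjusted p = 2.02e-08). The auxin repressor IAA23 (LOC_Os06g39590) had 1.22 ± 0.396 FPKM in flag leaves, 5.47 ± 0.509 in booting panicles and 6.39 ± 0.943 in flowering panicles (SD, n = 3 each) and fell by 1.75 ± 0.15 from flowering panicles (adjusted p = 1.38e-06). Abscisic acid 8'-hydroxylase 3, ethylene receptor 3, LOC_Os03g20790 and the auxin genes were singled out after their values were seen.

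Transcription factors made up 26 of 329 genes with a flag leaf peak (7.90%), with 3 higher and 7 lower than in flowering panicles, beside 49 and 92 of all 471 expressed ones. The word search also placed the JAZ family repressor TIFY 10b on this list, so it is counted here and among the hormone genes. NAC domain-containing protein 18 (LOC_Os08g42400) had 5.37, 5.76 and 5.41 FPKM in booting panicles, 56.8, 37.4 and 39.2 in flowering panicles, and 67.2, 71.6 and 74.9 in flag leaves, a fold of 1.74 and a logarithm of p of -163. It rose by 3.47 ± 0.13 from booting panicles (SE; limma, adjusted p = 2.24e-09) and differed from flowering panicles by 0.69 ± 0.13, under the call. B-box zinc finger protein 22 (LOC_Os05g11510), of a family tied to light signalling, had 15.2 ± 0.238 FPKM in flag leaves, 5.29 ± 0.936 in booting panicles and 16.4 ± 4.00 in flowering panicles (SD, n = 3 each) and a fold of 4.37. It rose from booting panicles by 1.38 ± 0.16 (adjusted p = 1.34e-05), which became 0.98 with a pseudocount of 5. Ocs element-binding factor 1 (LOC_Os02g03960), a bZIP factor, was abundant in panicles instead, with 112, 117 and 110.1 FPKM in booting panicles, 170.3, 187 and 179.8 in flowering panicles, and 34.2, 36.6 and 41.2 in flag leaves. It fell by 2.23 ± 0.08 from flowering panicles (log2; limma, adjusted p = 1.94e-09), and its flag leaf peak of 61 bases had a logarithm of p of only -1.62 and of the false discovery rate of -0.949.

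Receptors and kinases supplied 21 of 318 genes (6.60%), with 3 higher and 5 lower than in flowering panicles, beside 55 and 79 of all 401 expressed ones. CBL-interacting protein kinase 2 (LOC_Os07g48100), of a family that reads calcium signals, had 125, 126 and 124 FPKM in booting panicles, 163, 148 and 167 in flowering panicles, and 51.5, 52.7 and 49.4 in flag leaves and fell by 1.62 ± 0.06 from flowering panicles (log2; limma, adjusted p = 5.16e-09). PERK1-like (LOC_Os06g45350) had 13.1 ± 0.816 FPKM in flag leaves, 46.7 ± 4.77 in booting panicles and 35.6 ± 2.79 in flowering panicles (SD, n = 3 each) and fell by 1.37 ± 0.09 from flowering panicles (adjusted p = 1.97e-07). Receptor-like protein 12 (LOC_Os04g28210), which the word search placed here although its description names no kinase, rose by 2.58 ± 0.09 from flowering panicles (adjusted p = 2.39e-09) and had 1.54, 1.40 and 1.24 FPKM in booting panicles, 2.82, 2.29 and 2.35 in flowering panicles, and 19.6, 19.1 and 21.0 in flag leaves. The inactive receptor kinase LOC_Os05g51070 had 6.59 ± 0.598 FPKM in flag leaves, 3.25 ± 0.192 in booting panicles and 3.30 ± 1.19 in flowering panicles (SD, n = 3 each) and was not called, though its difference from flowering panicles passed with a pseudocount of 0.1 (1.03), without flowering panicle replicate 1 (1.07) and after quantile normalization (1.51), and that from booting panicles after quantile normalization (1.37).

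Of 84 defence genes with a flag leaf peak 6 (7.14%) were leaf-only, all described as RPM1- or RPP13-like resistance proteins that sense pathogens. None was higher and 1 was lower than in flowering panicles, beside 15 and 19 of all 117 expressed ones. RPP13-like protein 1 (LOC_Os02g25900) had 20.4, 19.3 and 18.0 FPKM in booting panicles, 211, 274 and 223 in flowering panicles, and 10.01, 11.1 and 1.04 in flag leaves. Flag leaf replicate 3 was far below the other leaves. The gene fell by 5.19 ± 0.55 from flowering panicles (log2; limma, adjusted p = 8.33e-06), by 4.35 without flag leaf replicate 3. Its fall from booting panicles, 1.64 ± 0.55 (adjusted p = 0.0169), was lost without that replicate, at -0.81, and after quantile normalization, at -1.10 (adjusted p = 0.0615). The pollen markers were likewise lowest in that replicate, at 6.20 FPKM against 16.8 and 15.5, and their part in this result was not tested. The RPM1 genes LOC_Os01g23380 and LOC_Os11g11790 and RPP13-like protein 2 (LOC_Os11g17014) had flag leaf means of 4.63, 5.62 and 2.61 FPKM and were not called. With a pseudocount of 0.1 the differences of LOC_Os01g23380 and LOC_Os11g17014 from flowering panicles passed (1.02 and 1.12), as they did after quantile normalization (1.55 and 1.62).

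Protein turnover and RNA handling were represented too. Of 332 ubiquitin and proteasome genes 17 (5.12%) were leaf-only, with none higher and 2 lower than in flowering panicles, beside 12 and 70 of all 385 expressed ones, and 2 higher and 5 lower than in booting panicles, beside 27 and 114. The F-box protein LOC_Os01g22430, a candidate substrate receptor of ubiquitin ligases, had 9.12 ± 0.625 FPKM in flag leaves, 2.78 ± 0.784 in booting panicles and 4.23 ± 0.735 in flowering panicles (SD, n = 3 each) and rose from booting panicles by 1.44 ± 0.16 (SE; limma, adjusted p = 9.26e-06), or 0.86 with a pseudocount of 5. Tubby-like F-box protein 3 (LOC_Os01g64700) had 13.6 ± 0.449 FPKM in flag leaves, 36.2 ± 1.26 in booting panicles and 24.1 ± 2.44 in flowering panicles (SD, n = 3 each) and fell by 1.35 ± 0.07 from booting panicles (log2; adjusted p = 3.51e-08 in limma), a call lost after quantile normalization (-0.95), and it was not called against flowering panicles. Proteasome subunit alpha type-4-1 (LOC_Os06g07878) had 4.98 ± 0.511 FPKM in flag leaves, 9.88 ± 0.814 in booting panicles and 9.86 ± 1.12 in flowering panicles (SD, n = 3 each) and was not called. RNA processing gave 2 of 207 (0.966%), with none higher and 1 lower than in flowering panicles, beside 18 and 24 of all 227 expressed ones. These were DEAD-box RNA helicase 47B (LOC_Os03g12000), with 30.5 ± 0.486 FPKM in flag leaves, 14.8 ± 0.814 in booting panicles and 15.7 ± 0.164 in flowering panicles (SD, n = 3 each), and the H/ACA ribonucleoprotein subunit 4 (LOC_Os03g25450), which helps modify ribosomal RNA. The latter had 5.52 ± 0.0668 FPKM in flag leaves, 24.1 ± 3.43 in booting panicles and 15.9 ± 2.54 in flowering panicles (SD, n = 3 each) and fell by 1.36 ± 0.12 from flowering panicles (log2; limma, adjusted p = 2.6e-06), a call lost with a pseudocount of 5 (-0.98) and after quantile normalization (-0.87). The helicase was not called, but its difference from booting panicles lay at the threshold and passed with a pseudocount of 0.1 (1.04), without booting panicle replicate 2 (1.04), without flag leaf replicate 3 (1.01) and after quantile normalization (1.37), as did that from flowering panicles under the last (1.26). None of 15 m6A writers, erasers and readers with a flag leaf peak was leaf-only.

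Transporters accounted for 12 of 232 genes (5.17%), 4 of them higher and 5 lower than in flowering panicles, beside 50 and 79 of all 289 expressed ones. Oligopeptide transporter 7 (LOC_Os06g03560) had the largest rise from flowering panicles among the described genes, with 2.54, 2.23 and 1.96 FPKM in booting panicles, 4.85, 3.37 and 3.90 in flowering panicles, and 32.4, 34.5 and 36.1 in flag leaves. It rose by 2.82 ± 0.12 from flowering panicles (SE; limma, adjusted p = 6.23e-09), with no overlap, at a peak fold of 2.03. The major facilitator LOC_Os11g01590 had 21.6 ± 0.858 FPKM in flag leaves, 3.15 ± 0.484 in booting panicles and 4.24 ± 0.859 in flowering panicles (SD, n = 3 each) and rose by 2.12 ± 0.13 from flowering panicles (adjusted p = 1.01e-07), with a fold of 4.58. Aquaporin NIP3-1 (LOC_Os10g36924), of a family of channels for water and small solutes, went the other way with 38.0, 31.4 and 29.9 FPKM in booting panicles, 114, 66.3 and 73.6 in flowering panicles, and 3.46, 4.42 and 3.83 in flag leaves. It fell by 4.09 ± 0.18 from flowering panicles (log2; limma, adjusted p = 1.14e-08). SWEET1a (LOC_Os01g65880), a sugar exporter family member, had 10.8 ± 0.647 FPKM in flag leaves, 60.5 ± 2.32 in booting panicles and 32.01 ± 1.63 in flowering panicles (SD, n = 3 each) and a fold of 3.85, and fell by 1.48 ± 0.07 from flowering panicles (adjusted p = 1.09e-08). ABC transporter B family member 4 (LOC_Os01g50080), with a peak of fold 5.27, had 11.2, 16.8 and 4.02 FPKM in booting panicles, 117, 65.7 and 96.3 in flowering panicles, and 28.5, 27.8 and 28.2 in flag leaves, so flag leaves lay between the panicle stages.

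Among 56 starch and sucrose genes with a flag leaf peak 4 (7.14%) were leaf-only, with 1 higher and 2 lower than in flowering panicles, beside 5 and 27 of all 65 expressed ones. Sucrose synthase 2 (LOC_Os03g28330), which splits sucrose for use in sink tissue, had the largest fall from booting panicles in the set and was singled out after its values were seen. It had 1039, 1059.6 and 1149.9 FPKM in booting panicles, 59.5, 42.1 and 60.6 in flowering panicles, and 3.74, 3.95 and 1.92 in flag leaves. It fell by 8.05 ± 0.20 from booting panicles to flag leaves (log2; limma, adjusted p = 1.1e-10), yet its peak was listed in flag leaves alone, at chr3:16301487-16301606 with a fold of 2.00 and a logarithm of p of -3.21. Cell-wall invertase 1, listed as beta-fructofuranosidase insoluble isoenzyme 1 (LOC_Os02g33110), splits sucrose outside the cell and had 41.8 ± 0.551 FPKM in flag leaves, 5.03 ± 1.78 in booting panicles and 47.7 ± 5.97 in flowering panicles (SD, n = 3 each). It rose by 2.87 ± 0.18 from booting panicles (SE; limma, adjusted p = 8.61e-08). The 1 gene higher than in flowering panicles was the glucanase LOC_Os05g41610. The word search placed it here although its description names neither starch nor sucrose. It had 26.9 ± 7.86 FPKM in flag leaves, 4.04 ± 1.59 in booting panicles and 7.54 ± 1.34 in flowering panicles (SD, n = 3 each) and rose by 1.68 ± 0.27 from flowering panicles (adjusted p = 0.000223). Isoamylase 2 (LOC_Os05g32710), a debranching enzyme of starch, had 1.13 ± 0.194 FPKM in flag leaves, 7.45 ± 0.133 in booting panicles and 11.1 ± 1.48 in flowering panicles (SD, n = 3 each) and fell by 2.50 ± 0.11 from flowering panicles (adjusted p = 9.51e-09).

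Oxidoreductases and cytochromes P450 gave 12 of 365 genes (3.29%), 3 higher and 4 lower than in flowering panicles, beside 70 and 141 of all 415 expressed ones. Besides ferredoxin-NADP reductase and ACC oxidase, an isoflavone reductase (LOC_Os12g16240) stood out by p, with a logarithm of -164 and a fold of 3.30 in exon 2 of 3. It had 39.2 ± 2.52 FPKM in flag leaves, 2.86 ± 1.52 in booting panicles and 18.7 ± 2.42 in flowering panicles (SD, n = 3 each) and rose by 1.04 ± 0.24 from flowering panicles (SE; limma, adjusted p = 0.00213). That call was lost with a pseudocount of 5 (0.90), without flowering panicle replicate 2 (0.93) and without flag leaf replicate 3 (0.99). The fatty acid desaturase DES3 (LOC_Os12g01370), on no list, had 9.96, 17.3 and 8.95 FPKM in booting panicles, 45.2, 63.1 and 56.3 in flowering panicles, and 2.10, 2.06 and 1.5 in flag leaves. It fell by 4.27 ± 0.22 from flowering panicles (log2; limma, adjusted p = 2.87e-08), and its fold of 14.2 rested on a logarithm of p of only -5.65.

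A last group was abundant in panicles and still had no panicle peak. Elongation factor 1-alpha (LOC_Os03g08020), which brings aminoacyl-tRNA to the ribosome and has similar copies, had 773, 857 and 1006 FPKM in booting panicles, 538, 472 and 474 in flowering panicles, and 360.3, 363 and 322 in flag leaves. Its flag leaf peak of 120 bases lay in its last exon, with a fold of 1.94 and a logarithm of p of -237. It fell by 1.33 ± 0.12 from booting panicles (log2; limma, adjusted p = 2e-06). Histone H2B.2-like (LOC_Os01g06010), a core histone with many similar copies, had 157, 209.8 and 249 FPKM in booting panicles, 84.0, 80.1 and 81.6 in flowering panicles, and 61.9, 65.7 and 64.3 in flag leaves. It fell by 1.64 ± 0.14 from booting panicles (adjusted p = 9.6e-07 in limma). The 14-3-3 protein GF14-C (LOC_Os08g33370), an adaptor that binds phosphorylated proteins, had 42.7 ± 2.46 FPKM in flag leaves, 194 ± 10.7 in booting panicles and 62.7 ± 3.04 in flowering panicles (SD, n = 3 each) and fell by 2.16 ± 0.07 from booting panicles (adjusted p = 6.43e-10 in limma). Long chain acyl-CoA synthetase 1 (LOC_Os05g04170), an enzyme of wax and cutin synthesis in Arabidopsis, had 483, 393 and 395 FPKM in booting panicles, 48.7, 63.0 and 71.6 in flowering panicles, and 10.4, 10.9 and 9.51 in flag leaves. It fell by 5.23 ± 0.14 from booting panicles (adjusted p = 1.44e-10 in limma), and no groups of it overlapped.

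Unlike the genes just described, but like the antenna genes above, dehydrin 13 (LOC_Os03g45280), of a family protective under water loss, rose from booting panicles. It had 80.6, 84.0 and 49.2 FPKM in booting panicles, 1319, 1189 and 1148 in flowering panicles, and 889, 916 and 1082 in flag leaves, with a fold of 1.77. It rose from booting panicles by 3.77 ± 0.19 (SE; limma, adjusted p = 1.53e-08) and did not pass the call against flowering panicles (-0.34 ± 0.19, adjusted p = 0.114). Of the 8 genes with both panicle means at 100 FPKM or more, none had a panicle peak by construction. They were 2.40% of the 333 genes with a flag leaf peak at that level, beside 2.49% where the lower panicle mean was 10 to 30 FPKM and 2.52% at 30 to 100.

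Some of the largest differences belonged to genes without an informative description, which were singled out after their values were seen. LOC_Os12g33120 had 3.54, 2.00 and 2.08 FPKM in booting panicles, 3.04, 2.09 and 2.45 in flowering panicles, and 1279, 1239 and 1509 in flag leaves. It was near the floor in every panicle library and the most abundant of the 513 genes in flag leaves, and it rose by 8.58 ± 0.16 from flowering and 8.59 ± 0.16 from booting panicles (SE; limma, adjusted p = 9.92e-11 and 2.82e-11). Its 3' UTR peak of 59 bases had the smallest fold of the whole set, 1.14. LOC_Os01g68450 had 3.38, 4.51 and 3.16 FPKM in booting panicles, 38.1, 29.5 and 35.3 in flowering panicles, and 400.1, 403 and 405 in flag leaves and a fold of 1.42, and LOC_Os06g11330 had 80.1 ± 3.96 FPKM in flag leaves, 5.47 ± 1.35 in booting panicles and 1.42 ± 0.263 in flowering panicles (SD, n = 3 each) and a fold of 1.69. They rose by 3.52 ± 0.12 and 5.07 ± 0.14 from flowering panicles (SE; limma, adjusted p = 1.47e-09 and 4.86e-10), without overlap. In the other direction, LOC_Os04g21710 had 17.4, 17.6 and 19.8 FPKM in booting panicles, 137, 220.3 and 165 in flowering panicles, and 2.86, 2.64 and 1.58 in flag leaves, and it fell by 5.70 ± 0.18 from flowering panicles (log2; limma, adjusted p = 1.24e-09). Its 3' UTR peak had a fold of 2.61 and a logarithm of p of -4.17.

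On the 13 lists together stood 125 of the 513 genes. An informative description was given for 275, and 238 had none. At the floor itself, the members just inside were LOC_Os10g07004 at 1.00154 FPKM (booting panicles), LOC_Os09g37590 at 1.00156 FPKM (flag leaves) and LOC_Os05g34130 at 1.00179 FPKM (flag leaves). Just outside were LOC_Os07g47990 at 0.999589 FPKM (flag leaves), LOC_Os09g29600 at 0.995757 FPKM (booting panicles) and LOC_Os10g41000 at 0.989543 FPKM (flag leaves). A further 890 genes had a flag leaf peak only but lay below the floor in at least 1 group, and they are not counted here.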

How the data were processed

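The deposited expression table gives FPKM for each input library, and the submitters' processing notes name HISAT2, StringTie, cutadapt, ChIPseeker and HOMER. Not given in the sources used here are their versions, the build, the program that called peaks and whether counting used strand. Per the file headers, each of the 3 peak lists, 1 per group, gives a fold of immunoprecipitate over input (a ratio) and a p-value as its score. It also gives the base-10 logarithms of p and of a false discovery rate. All are pooled over replicates by the authors. No peak was left out by its false discovery rate. Exactly repeated lines, 2, 3 and 4 in the booting, flowering and flag leaf lists, were dropped, while overlapping peaks of the same gene were kept. Position classes are those the authors deposited, and coordinates are as in the lists.

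Members were taken by the FPKM floor of 1 and the gene identifiers of the lists. The members, gene lists and tests were chosen with earlier results of these data known. Input levels were fitted as log2(FPKM + 1) across all 9 inputs with limma 3.58.1 (R 4.3.3; prior variance with a trend), over 23355 genes that reached 1 FPKM in 3 libraries. The script was tested on simulated data. Fragment counts could not be recovered from FPKM: at the best-fitting depth of each library, 30.5 to 42.4% of low values were whole within 0.1, against 20% by chance at a fixed depth. The share by chance at a best-fitting depth may be higher and was not worked out. Count tests were therefore not used, and intervals that need depth are not given. Genes named are the 10 with the smallest peak p and the 10 with the highest lower panicle mean among those with an informative description, the 5 largest called rises and falls between flag leaves and flowering panicles, up to 3 per list, and those at the floor. Others are said to be chosen after their values were seen. Lists come from words in the descriptions. No genome of the files' build was used, so no peak sequence is printed. Alternatives tried were other pseudocounts, scalings, filters and floors, peak thresholds, a replicate block and each replicate left out.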

Additional observations from a re-analysis of the deposited data

Results flagged for a closer look

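Input levels of 4 leaf-only genes differed from flag leaves in opposite directions at the panicle stages, higher than flag leaves at flowering and lower at booting. The share of expressed genes with that pattern was not worked out, so the count is not read as high or low. The 4 genes were picked for being called in both directions, which fixes that they rose from booting to flowering, so this rise is given as a value without a test. Glutathione S-transferase 4 (LOC_Os01g27210), a detoxifying enzyme, had a log2 difference of flag leaves of -1.14 from flowering and 1.59 from booting panicles, with a rise between stages of 2.73 ± 0.17 (SE). ABC transporter B family member 4 (LOC_Os01g50080) had -1.65 and 1.505, and 3.15 ± 0.39 between stages. Its difference from booting panicles was 0.99 without booting panicle replicate 3. ACC oxidase 1-like (LOC_Os02g53180), which makes ethylene, had -2.67 and 1.02, and 3.69 ± 0.18 between stages. Its difference from booting panicles fell under 1 with equal library sums (0.96), with a pseudocount of 5 (0.85) and without booting panicle replicate 3 (0.79). Cytokinin riboside 5'-monophosphate phosphoribohydrolase LOGL5 (LOC_Os03g64070), which activates cytokinins, had -1.18 and 1.46, and 2.64 ± 0.13 between stages.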

How the results depend on the processing

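The number of leaf-only genes depended on the peak thresholds: 336 were counted at a fold of at least 2, 72 at a fold of at least 5, 28 among flag leaf peaks with a p below the list's median and 214 at a floor of 5 FPKM, and leaving out 1 input library gave 510 to 519. At that floor the median fold was 2.00 (1.995 before rounding) and the share in 3' UTRs 86.0%, and at a fold of at least 5 the share was 68.9%. Without the threshold on the log2 change, 166 were higher and 250 lower than in flowering panicles, 238 lower than in booting panicles, and 209 rose and 160 fell from booting to flowering. A pseudocount of 5 left 84 lower than in booting panicles and 29 falling between stages. After quantile normalization 161 were higher and 70 lower than in flowering panicles, and 77 lower than in booting panicles. Leaving out 1 library gave 84 to 94 higher and 109 to 112 lower than in flowering panicles, 129 to 141 higher and 130 to 136 lower than in booting panicles, and 101 to 111 rising and 43 to 48 falling between stages. Shares called over all genes were not worked out under these alternatives, and the cause of the shifts was not tested.

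Of the named genes' values under all alternatives, 1589 kept direction and call, 24 gained a call, 26 lost one and 11 turned sign. The sign turned after quantile normalization against flowering panicles for LOC_Os10g30190 (0.12), LOC_Os01g47330 (0.21), LOC_Os05g11510 (0.32), LOC_Os11g11790 (0.49), LOC_Os02g33110 (0.12), LOC_Os10g07004 (0.083) and LOC_Os09g37590 (0.31), and against booting panicles for LOC_Os01g23380 (0.44) and LOC_Os09g37590 (0.16). LOC_Os05g11510 also turned with equal library sums (0.0011) and without flowering panicle replicate 3 (0.089; -0.25 to 0.089 over the libraries left out). None of these had been called. With the replicate number as a block the counts were 89 higher and 110 lower than in flowering panicles and 134 and 133 against booting panicles. Residuals of libraries with the same number correlated at -0.189 to 0.118, with 2 of 9 over 0.1, so the numbers were not taken as pairs. Peaks are pooled, so no result on them has a replicate check, and unlisted panicle peaks may lie under the authors' detection limit.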
